A study of Sus scrofa with 32 samples.

Results

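T cells of the ileum were set against T cells of the blood of the same 2 pigs. The cells were chosen by their own RNA: droplet barcodes above set minimums of genes and of unique molecular identifiers (UMIs, 1 count for each captured RNA molecule) and below a set share of mitochondrial UMIs were taken as cells. Of these a T cell had at least 1 UMI of CD3E, a chain of the CD3 complex that carries the T cell receptor signal, no UMI of the B cell genes CD79B and MS4A1 or of the epithelial gene EPCAM, and less than 0.5% of its UMIs from JCHAIN, a gene of antibody-secreting cells. This rule found 18601 T cells among 48629 cells, 12681 of 35386 in ileum and 5920 of 13243 in blood. Within them, cells with a UMI of CD8B, the beta chain of the CD8 coreceptor of cytotoxic αβ T cells (2659 in ileum and 1156 in blood), of TRDC, the constant region of the δ chain that marks γδ T cells (4145 and 1147), and of CD4 (801 and 602) were also examined apart.

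The animals were untreated mixed-breed pigs 7 weeks old, pig 1 a female and pig 2 a male. The distal ileum of each gave 3 libraries: from pieces that held Peyer's patches (PP), the organised lymphoid follicles of the gut wall, from pieces that held none (non-PP) and from undissected wall (whole ileum), 6 ileal libraries in all, and peripheral blood mononuclear cells (PBMC) gave 1 library a pig. Ileal cells were released by epithelial stripping and warm enzyme digestion and freed of dead cells, steps the blood cells did not go through, so that tissue and preparation cannot be told apart here. By their labels the 3 ileal libraries of a pig share that animal, with an exception given in the next paragraph, and n counts libraries (6 against 2), not animals.

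Libraries held 21134542 to 40111934 UMIs, and their T cells 1407 to 3135 cells and 3619973 to 13248712 UMIs, with a median of 2211 to 2699 UMIs a T cell in ileum and of 3153 and 3368 in PBMC of pig 1 and pig 2. The library labelled whole ileum pig 1 went against its label: 41.4% of its T cells carried UMIs of Y-linked genes, as did 36.2 to 41.6% in the libraries of pig 2 and none in the other libraries of pig 1. Between 3 and 13 T cell barcodes were shared by any pair of libraries. The summed level of 18 epithelial markers in T cells was 168 to 2603 CPM (counts scaled to the same UMI total in each library) in ileum, with every marker detected in each ileal library, against 4.30 and 2.64 CPM in PBMC, where 7 and 11 markers, KRT8 among them, were at 0. Platelet and red cell genes went the other way, at 44.8 to 333 CPM in ileum against 11758 and 2479 CPM in PBMC. Markers of monocytes, macrophages and dendritic cells summed to 167 to 732 CPM in ileum against 465 and 1105 CPM, and those of B and antibody-secreting cells to 49.6 to 114 CPM against 43.7 and 35.5 CPM. The part of such RNA in the results below was not tested beyond the subtraction given in the closing section.

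Conventional T cells patrol by way of blood and lymph nodes: the chemokine receptor CCR7 guides them into a node, the sphingosine-1-phosphate receptor S1PR1 lets them leave tissue again, and the transcription factor KLF2 drives S1PR1. T cells that settle in the gut wall lose these genes and carry retention molecules such as CD69, which pulls S1PR1 off the cell surface, and the integrin αEβ7, which binds E-cadherin of the epithelium. Pigs have many γδ T cells, in the blood as well as in the gut.

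The label T cell was checked on genes the rule did not use, within a limit given below. CD3D, CD3G or CD247, the other chains of the CD3 complex, were detected in 97.3 to 98.9% of ileal and blood T cells with at least 2 UMIs of CD3E and in 85.1 to 95.01% of those with 1 UMI. Cells at the edge of the rule, with exactly 1 UMI of CD3E, made up 10.3 to 16.2% of T cells in ileal libraries and 30.3% and 24.2% in PBMC of pig 1 and pig 2. Just outside it, 283 to 1041 cells a library in ileum and 1335 and 2430 in PBMC met every other rule with 0 UMIs of CD3E, and 43.9 to 93.4% of them had one of the 3 other chains. In non-PP pig 2 the share was 93.4%, against 95.01% of T cells with 1 UMI. In PP pig 1 it was 43.9% against 85.1%. The paper reports CD3G and CD247 in some ileal innate lymphoid cells, which largely lacked CD3E. These chains therefore cannot tell T cells from such cells, and whether the rule admitted any was not tested. The paper also gives a gene signature of innate lymphoid cells of blood, its natural killer cells, against those of ileum. It holds CX3CR1, KLRG1, S1PR5, TBX21, ITGB2, ITGA4, ITGAM, NCR3 and HCST, all called lower in ileum below. Whether the rule admitted natural killer cells of blood was not tested either. CD3E itself, which chose the cells, stood at 1387 to 1917 CPM in ileal T cells and at 633 and 694 CPM in blood. The other chains, outside the rule, were also higher in ileum, CD3D by 1.43 ± 0.14 on the log2 scale (standard error, adjusted p = 0.000192), CD3G by 1.04 ± 0.13 (adjusted p = 0.000704) and CD247 by 1.39 ± 0.19 (adjusted p = 0.0011) in edgeR's quasi-likelihood test with Benjamini-Hochberg adjustment, as for every adjusted p that follows. Without non-PP pig 1, CD3G (0.99) was no longer called. On exclusion of PBMC pig 2, CD3G (0.95) was no longer called. CD3G was also under the fold threshold after thinning (0.93) and with an ambient profile subtracted (0.77).

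TRDC was found in a larger share of T cells in every ileal library than in either blood library. With each cell thinned to the UMI minimum for cells, the share was 22.9% in PP pig 1, 25.7% in PP pig 2, 34.4% and 33.6% in non-PP, 27.1% and 27.5% in whole ileum, and 16.01% and 17.7% in PBMC, a mean of 28.5% ± 4.54 (SD, n = 6) against 16.9% ± 1.19 (SD, n = 2). The difference was 11.7 percentage points, with 6 of 6 ileal libraries above both PBMC libraries. The exact two-sided permutation test over libraries gave p = 0.0714, or 0.214 when adjusted over the 3 shares tested. This test doubles the smaller tail, and in that form 0.0714 is the smallest p that 6 against 2 libraries can give. CD8B was in 11.8% ± 2.35 (SD, n = 6) of ileal and 8.74% ± 3.74 (SD, n = 2) of blood T cells (exact permutation p = 0.214, adjusted p = 0.321), and CD4 in 3.98% ± 1.98 (SD, n = 6) and 4.52% ± 2.15 (SD, n = 2) (exact permutation p = 0.786). For both genes the libraries of the tissues overlapped. B cells of the same libraries, which should lack these genes, had a UMI of TRDC in 1.52 to 6.45%, of CD8B in up to 1.45% and of CD4 in up to 0.23% of cells, with median depths of 2757 to 4479 UMIs before thinning. They were cells with a UMI of CD79B or MS4A1 and none of CD3E. Non-PP held only 31 and 69 of them, against 1332 to 4997 in the other libraries, so its background shares are imprecise. Whether some of them were T cells or innate lymphoid cells was not tested. Without thinning the shares of T cells were 26.1 to 38.0% in ileum against 18.3% and 20.5% for TRDC, 15.3 to 23.9% against 14.6% and 25.1% for CD8B, and 1.74 to 11.9% against 7.08% and 13.6% for CD4. All these shares count cells with a captured UMI, and the intervals drawn for them cover counting error only.

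**Figure D1:**
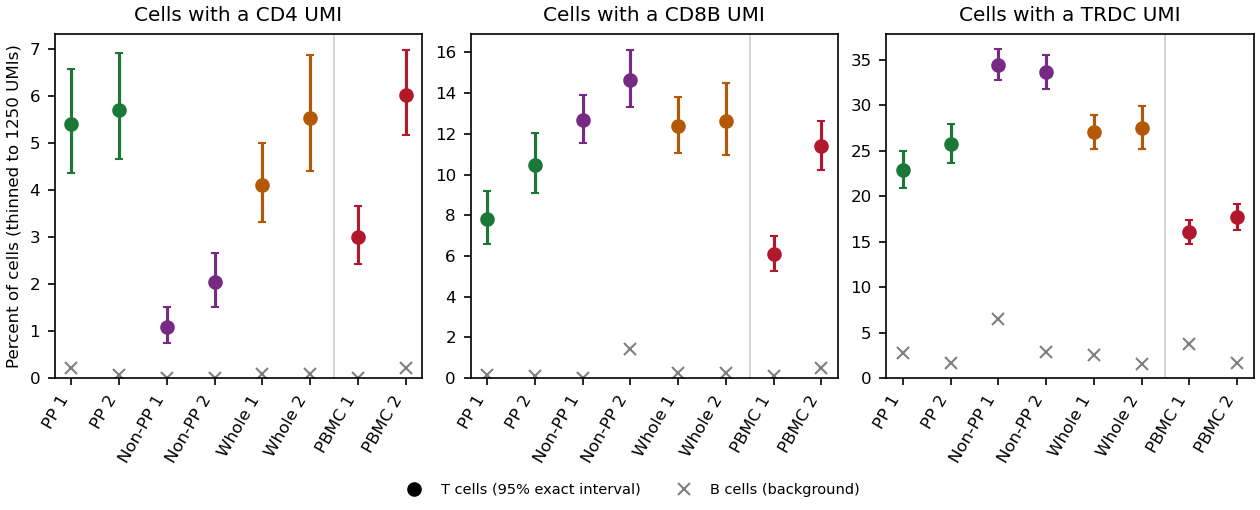
Percent of T cells with a UMI of CD4, CD8B or TRDC (y axes) in the 8 libraries (x axis), after thinning every cell to the same number of UMIs. Points are libraries with exact 95% binomial intervals, and grey crosses give the percent of B cells of the same library with that gene. The crosses of non-PP rest on 31 and 69 B cells. For TRDC the 6 ileal libraries lie between 22.9 and 34.4% and the PBMC libraries at 16.01 and 17.7%.

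To ask which genes distinguish T cells of the gut wall from those in circulation, raw UMI counts were summed over the T cells of each library and tested across all genes, with a gene called at an adjusted p below 0.05 and a log2 fold change beyond 1 in either direction. A fold change is ileum over blood, and levels are CPM scaled by TMM. Of 10187 genes tested, 764 (7.5%) were called higher and 579 (5.68%) lower in ileal T cells, and the median log2 fold change of all genes tested was 0.01. Without the library labelled whole ileum pig 1 the counts were 716 and 523, without PBMC pig 1 they were 400 and 504, and with the pig as a block the paired fit called 788 higher and 602 lower. In a sum over cells, fewer cells of a type and less RNA a cell cannot be told apart. Ileal levels are given as the lowest, median and highest of 6 libraries, PBMC levels for pig 1 and then pig 2, and ± marks the standard error of a log2 fold change. This error is approximate, computed as the absolute log2 fold change over the square root of the test's F statistic. With counts summed over the ileal libraries of each pig (2 sums against 2), 738 genes were called higher and 438 lower. In that fit CD96, ZNF683, ITGAM, ID3, MCM2 and SQLE, all described below, were no longer called. That fit keeps the library labelled whole ileum pig 1 under its label. The 15 genes described first in each direction were chosen by size of change among genes called in all T cells, in CD8B cells and in TRDC cells that also met a minimum level and exceeded the level in barcodes of few UMIs, so that larger changes of other genes, such as IL22 and S1PR5, come later. RGS1, PPP1R15A, CXCR4, FOS and CD69 met the conditions of size, call and minimum level. They come later because they did not exceed the level in such barcodes in every ileal library. Among all genes called, 741 of the 764 higher and 552 of the 579 lower did not overlap between ileal and PBMC libraries.

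The 15 genes named as higher in ileal T cells included NR4A2, ITGAE, CCR9 and CTLA4. NR4A2, a nuclear receptor induced by stimulation, was at 199.6, 223 and 267 CPM in ileum and 6.61 and 2.64 CPM in PBMC, a log2 fold change of 5.62 ± 0.34 or 49.2-fold (adjusted p = 2.21e-05). ITGAE, the αE chain of the integrin αEβ7, was at 177, 247 and 469.8 CPM in ileum and 24.5 and 26.0 CPM in PBMC, 10.8-fold higher (log2 3.43 ± 0.40, adjusted p = 0.000407). CCR9, the receptor for the small intestinal chemokine CCL25, was at 107, 122 and 145 CPM in ileum and 14.4 and 19.98 CPM in PBMC (log2 2.86 ± 0.20, adjusted p = 2.96e-05). In each case the lowest ileal library stood several-fold above the higher PBMC library, and the naming rule required it to lie above. Feedback inhibitors of signalling were TNFAIP3, which restrains NF-κB (log2 4.12 ± 0.26), and DUSP4, a MAP kinase phosphatase (log2 4.10 ± 0.44), and CREM is a cyclic AMP-responsive transcription factor (log2 3.73 ± 0.31). CRTAM, an adhesion receptor of activated cytotoxic cells, changed by log2 3.35 ± 0.26, CD96, a receptor of the same ligand family as TIGIT, by log2 2.61 ± 0.62, and CTLA4, which competes with CD28 for its ligands, by log2 3.26 ± 0.66. CTLA4 was at 17.2, 64.4 and 93.1 CPM in ileum and 5.62 and 6.11 CPM in PBMC, with the 2 lowest ileal values, 17.2 and 28.3 CPM, in non-PP. Secreted products among these genes were XCL1, which attracts cross-presenting dendritic cells (log2 3.33 ± 0.28), and the anti-inflammatory cytokine IL10, at 30.2, 75.8 and 98.4 CPM in ileum and 10.2 and 15.7 CPM in PBMC (log2 2.48 ± 0.45, adjusted p = 0.00407). The remaining genes were the transporter ABCB1 (log2 3.95 ± 0.39), the iron transporter SLC11A2 (log2 2.40 ± 0.20), the survival factor BCL2A1 (log2 2.39 ± 0.25) and SMIM3 (log2 4.30 ± 0.28). With PBMC pig 1 left out, CTLA4 (3.19) was no longer called, and NR4A2 (6.42) and CD96 (4.10) moved by more than 1.5-fold and stayed called. After removal of PBMC pig 2, CTLA4 (3.32) and CD96 (1.89) were no longer called.

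The 15 genes named as lower in ileal T cells included CX3CR1, KLRG1, KLF2 and TBX21. CX3CR1, the fractalkine receptor of circulating cytotoxic cells, was at 0.729, 1.48 and 2.46 CPM in ileum and 162 and 99.7 CPM in PBMC, 91.3-fold lower in ileum (log2 -6.51 ± 0.26, adjusted p = 6.05e-06). After thinning, 0.0400 to 0.291% of ileal T cells and 20.8% and 10.5% of blood T cells had a UMI of it, while B cells had 0 to 0.0494% in ileum and 0.964% and 1.20% in blood. KLRG1, an inhibitory receptor of terminally differentiated effectors, was at 6.68, 7.87 and 14.8 CPM in ileum and 232 and 107 CPM in PBMC (log2 -4.23 ± 0.30, adjusted p = 3.75e-05). KLF2 was at 8.01, 36.8 and 45.9 CPM in ileum and 425 and 455 CPM in PBMC (log2 -3.89 ± 0.52, adjusted p = 0.000884). Its ileal libraries fell into separate ranges, with 8.01 and 10.6 CPM in non-PP and 35.6 to 45.9 CPM in PP and whole ileum. KLF3, of the same family, fell by 3.44. TBX21, which encodes the cytotoxic and type 1 factor T-bet, was at 10.1, 16.1 and 22.4 CPM in ileum and 129 and 66.7 CPM in PBMC (log2 -2.53 ± 0.27, adjusted p = 0.000259). ITGB2, the chain shared by the leukocyte integrins, was at 23.9, 72.4 and 110.4 CPM in ileum and 525 and 347 CPM in PBMC (log2 -2.75 ± 0.49), again lowest in non-PP at 23.9 and 24.4 CPM. Adhesion proteins of the surface were also SPN, or CD43 (log2 -1.92 ± 0.14), and ADGRE5, or CD97 (log2 -2.05 ± 0.23). Genes of the cytoskeleton and membrane were CDC42EP3 (log2 -3.07 ± 0.14), ADD3 (log2 -2.78 ± 0.22), MYADM (log2 -2.31 ± 0.23) and S100A10 (log2 -1.90 ± 0.16), and the list ended with RASA3, a GTPase-activating protein (log2 -3.67 ± 0.43), TNFAIP8L2 (log2 -2.27 ± 0.21) and the prostaglandin E2 receptor PTGER2 (log2 -2.003 ± 0.26). For all these 15 genes both PBMC libraries lay above every ileal library, which the naming rule required. In the fit that lacked PBMC pig 1, KLRG1 (-3.58) moved by more than 1.5-fold and stayed called.

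**Figure D2:**
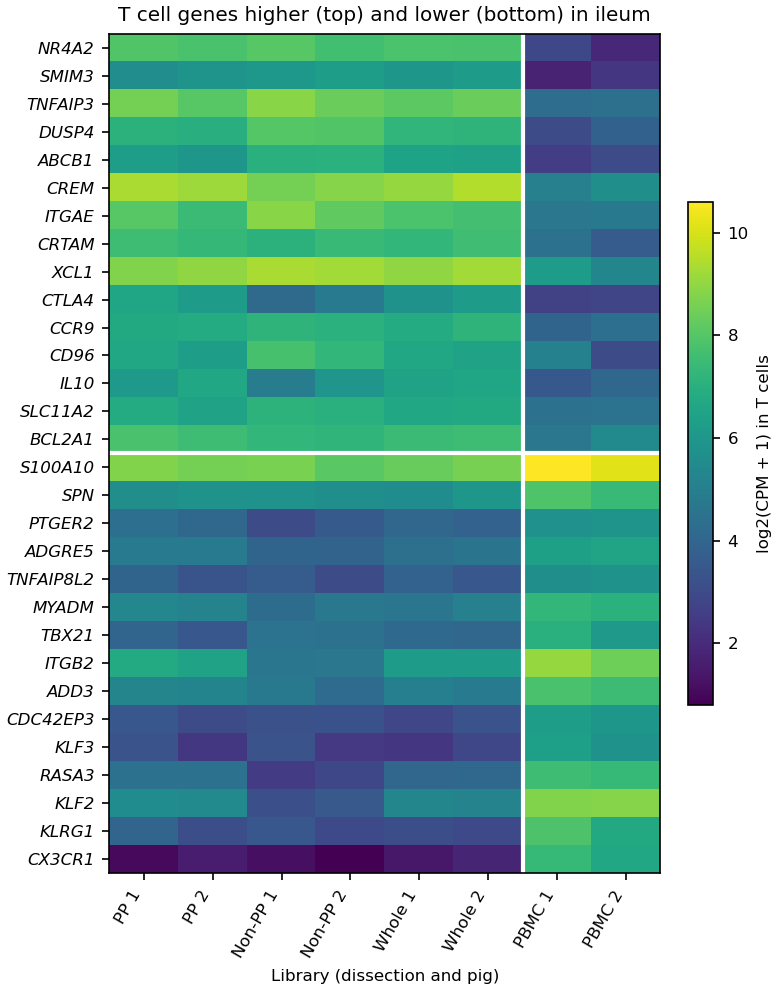
Levels of the 15 genes named as higher and the 15 named as lower in ileal T cells (rows) in the 8 libraries (columns), as log2(CPM + 1) shown by colour. The rule for naming asked for no overlap between ileal and PBMC libraries, and the rows of KLF2 and ITGB2 are lowest in the 2 non-PP libraries among the ileal ones.

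Genes of egress and lymph node homing were lower or not called. Of 12 tested, 0 were called higher and 4 lower (KLF2, KLF3, S1PR1 and S1PR5), with a median log2 fold change of -0.77 against 0.01 over all genes. S1PR5, the receptor of circulating cytotoxic cells, was at 0.274, 0.457 and 0.602 CPM in ileum and 86.9 and 31.5 CPM in PBMC (log2 -6.93 ± 0.37, adjusted p = 1.62e-05). S1PR1 was at 10.9, 45.3 and 63.3 CPM in ileum and 109.6 and 146 CPM in PBMC (log2 -1.73 ± 0.55, adjusted p = 0.0438), with non-PP at 10.9 and 13.1 CPM. CCR7 was at 4.76, 64.9 and 88.6 CPM in ileum and 80.8 and 160.2 CPM in PBMC (log2 -1.23 ± 0.81, adjusted p = 0.293) and was not called. Its ileal libraries fell into 2 ranges, with 4.76 and 11.06 CPM in non-PP and 61.1 to 88.6 CPM in PP and whole ileum. S1PR1 lost its call when any one of PBMC pig 1 (-1.94), PBMC pig 2 (-1.52), PP pig 2 (-1.88), the library labelled whole ileum pig 1 (-1.80) and whole ileum pig 2 (-1.76) was left out. When PBMC pig 1 was left out, S1PR5 (-6.03) moved by more than 1.5-fold and stayed called. In DESeq2, and with the pig as a block in the absence of the library labelled whole ileum pig 1, the call of S1PR1 was lost as well (adjusted p = 0.058 in both).

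Genes of tissue residence went the other way for most members. Of 18 tested, 12 were called higher and 2 lower, with a median log2 fold change of 2.33. The 12 include NR4A1, of the family of NR4A2 and NR4A3 in the immediate early list below. They also include CD69, which the paper describes as a marker of recent activation as well as of residence. Tissue and preparation cannot be told apart for this list either. RGS1, which dampens chemokine receptor signals, was at 843, 1033 and 1360.4 CPM in ileum and 38.9 and 31.0 CPM in PBMC (log2 4.90 ± 0.24, adjusted p = 1.52e-05). CD69 was at 190.2, 326 and 393 CPM in ileum and 23.0 and 48.8 CPM in PBMC (log2 3.06 ± 0.43, adjusted p = 0.0011). CXCR6, a chemokine receptor of resident cells, was at 17.4, 25.1 and 33.6 CPM in ileum and 1.67 and 2.15 CPM in PBMC (log2 3.66 ± 0.31, adjusted p = 8.63e-05). The members called lower were HOPX and ZNF683, which encodes Hobit, a repressor of egress genes in resident cells of the mouse. ZNF683 was at 12.8, 18.2 and 25.5 CPM in ileum and 171 and 40.0 CPM in PBMC (log2 -2.58 ± 0.41, adjusted p = 0.00215), highest in PBMC pig 1. ITGB7, the partner chain of ITGAE, was at 129.8, 149 and 174 CPM in ileum and 174 and 211 CPM in PBMC (log2 -0.35 ± 0.13, adjusted p = 0.0832) and did not pass the threshold. CD101, called higher, had 77 UMIs in ileum and 2 in blood, a ratio of 25.7 with a counting interval of 6.89 to 216. On omission of PBMC pig 2, CD69 (3.70) and ZNF683 (-3.28) moved by more than 1.5-fold and stayed called. Once PBMC pig 1 was set aside, ZNF683 (-1.19) moved by more than 1.5-fold and stayed called. The call of ZNF683 was lost with sums per pig (-2.65, adjusted p = 0.0648), in pig 2 alone (-1.12, adjusted p = 0.0636) and in non-PP, PP and whole ileum alone (adjusted p = 0.0582, 0.0855 and 0.0845).

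Cells were also sorted by which of these genes they held, genes chosen with their direction known. In cells thinned to equal depth, UMIs of ITGAE, RGS1 or CCR9 with none of CCR7 and S1PR1 were found in 60.2 to 82.3% of T cells in ileal libraries and in 7.40% and 6.21% in PBMC of pig 1 and pig 2. The converse, a UMI of CCR7 or S1PR1 with none of ITGAE, RGS1 and CCR9, was found in 0.482 to 5.82% of ileal and 18.6% and 26.8% of blood T cells. In non-PP it was 0.482% and 0.759%, and in PP 5.52% and 5.82%. UMIs of both sets were in 0.707 to 6.64% of ileal T cells, and 5 of the 6 ileal libraries, PP pig 2 being the exception, had more such cells than cells with CCR7 or S1PR1 and none of the other set. In PBMC of pig 1 and pig 2 both sets were found in 1.66% and 3.23%. No UMI of any of the 5 genes was found in 72.3% and 63.8% of T cells in PBMC of pig 1 and pig 2. ITGAE by itself was in 17.9 to 40.7% of ileal and 2.39% and 2.30% of blood T cells, against 3.23 to 5.80% of ileal and 2.83% and 1.502% of blood B cells. RGS1 is also a gene of B cells, with UMIs in 29.0 to 44.9% of ileal B cells, so its share does not mark T cells alone. These ileal B cell ranges include non-PP, with only 31 and 69 B cells.

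**Figure D3:**
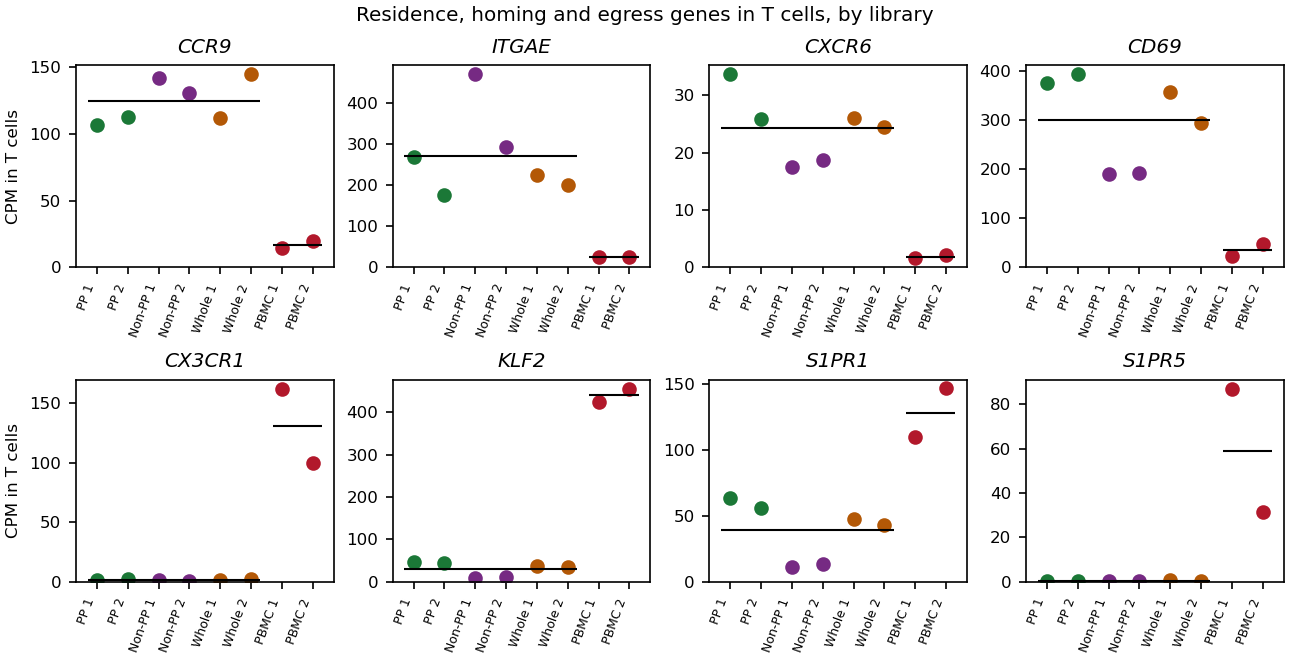
Level in CPM (y axes, linear from 0) of CCR9, ITGAE, CXCR6, CD69, CX3CR1, KLF2, S1PR1 and S1PR5 in the T cells of each library. Points are libraries coloured by dissection and lines are the means of the 6 ileal and the 2 PBMC libraries. CCR9, ITGAE, CXCR6 and CD69 lie higher in every ileal library and CX3CR1, KLF2, S1PR1 and S1PR5 lower, and both non-PP libraries lie lowest for KLF2 and S1PR1, at 8.01 and 10.6 CPM for KLF2.

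Receptors that guide migration moved in both directions. Of 14 chemoattractant receptors tested, 4 were called higher (CCR9, CXCR4, GPR18 and GPR183) and 4 lower (C5AR1, CCR1, CCR2 and CX3CR1), with a median log2 fold change of 0.16. CXCR4, the CXCL12 receptor, was at 169, 336 and 435 CPM in ileum and 15.7 and 15.8 CPM in PBMC (log2 4.31 ± 0.45, adjusted p = 0.000231). GPR183, which guides cells along oxysterols, was at 75.2, 171 and 228 CPM in ileum and 34.8 and 51.2 CPM in PBMC (log2 1.96 ± 0.40, adjusted p = 0.0072). CCR2, a receptor of inflammatory recruitment, was at 0.649, 1.21 and 2.46 CPM in ileum and 10.1 and 27.0 CPM in PBMC (log2 -3.92 ± 0.43, adjusted p = 0.000288). CCR2 was also called lower among CD8B, TRDC and CD4 cells, while CCR1 and C5AR1 were called in none of these subsets. Markers of monocytes, macrophages and dendritic cells summed to 465 and 1105 CPM in blood T cells of pig 1 and pig 2. The part of such RNA in these calls was not tested. Of 12 integrin genes other than ITGAE, ITGA1 and ITGB7, 2 were called higher (ITGA2 and ITGB8) and 6 lower (ITGA4, ITGA5, ITGAM, ITGB1, ITGB2 and ITGB5), with a median of -1.32. ITGA4, which pairs with β7 or β1 for entry from blood vessels, was at 108, 124 and 129 CPM in ileum and 317 and 215 CPM in PBMC (log2 -1.15 ± 0.14, adjusted p = 0.000514). ITGB1 was at 55.0, 72.1 and 117 CPM in ileum and 287 and 169 CPM in PBMC (log2 -1.51 ± 0.27, adjusted p = 0.004), and ITGAM, an integrin chain of myeloid and effector lymphoid cells, at 1.81, 2.72 and 3.75 CPM in ileum and 48.6 and 9.82 CPM in PBMC (log2 -3.37 ± 0.46). ITGB8 had no UMI in blood T cells and was at least 13.2-fold higher in ileum, against a floor of 3 counts over both PBMC libraries. In the absence of PBMC pig 2, CCR2 (-3.02) and ITGAM (-4.11) moved by more than 1.5-fold and stayed called. Without PBMC pig 1, GPR183 (1.70), ITGA4 (-0.86) and ITGB1 (-1.09) were no longer called, and ITGAM (-1.80) moved by more than 1.5-fold and stayed called.

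Immediate early genes, which rise within minutes of receptor stimulation or cell stress, were higher as a list. Of 21 tested, 17 were called higher and 0 lower, with a median log2 fold change of 2.63. FOS was at 147, 223 and 319 CPM in ileum and 9.27 and 27.5 CPM in PBMC (log2 3.65 ± 0.48, adjusted p = 0.000827), and its AP-1 partner JUN at 246, 379.9 and 479.6 CPM in ileum and 69.5 and 81.2 CPM in PBMC (log2 2.28 ± 0.29, adjusted p = 0.000704). PPP1R15A, a gene of the integrated stress response, was at 115, 182 and 216 CPM in ileum and 6.69 and 9.99 CPM in PBMC (log2 4.36 ± 0.32). Each of these 3 genes was higher in every ileal library than in both PBMC libraries, as were 741 of the 764 genes called higher. ZFP36, which destabilises cytokine mRNA, was at 96.1, 111 and 157 CPM in ileum and 102 and 99.9 CPM in PBMC (log2 0.25 ± 0.18, adjusted p = 0.343), with overlapping libraries, and was not called. Of 12 heat shock genes, 3 were called higher (BAG3, DNAJB1 and HSPA5) and 0 lower, with a median of 0.93. HSPA5, a chaperone of the endoplasmic reticulum, was at 589, 655 and 837 CPM in ileum and 168 and 174 CPM in PBMC (log2 2.02 ± 0.18, adjusted p = 9.63e-05), and DNAJB1, a cochaperone, at 94.2, 336 and 494 CPM in ileum and 44.7 and 70.3 CPM in PBMC (log2 2.45 ± 0.58, adjusted p = 0.0142). BAG3 changed by log2 1.32 ± 0.23 , while HSPA8, the constitutive chaperone, had a log2 fold change of 0.67 ± 0.32 (adjusted p = 0.148) and was not called. Only the ileal cells went through warm digestion, so preparation and tissue cannot be told apart for these genes, as for all others here. On exclusion of PBMC pig 1, DNAJB1 (2.15) was no longer called, and FOS (3.05) moved by more than 1.5-fold and stayed called. With PBMC pig 2 left out, DNAJB1 (2.80) was no longer called, and FOS (4.63) moved by more than 1.5-fold and stayed called.

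Genes of cytotoxic molecules, a list not limited to granule contents, were called in both directions. Of 15 entries tested, 3 were called higher (one of 2 GZMA entries, GZMB and GZMK) and 2 lower (LYST and TNFSF10), with a median log2 fold change of 0.24. GZMB, a protease that starts death of target cells, was at 3963, 6415 and 11306 CPM in ileum and 1294 and 2512 CPM in PBMC (log2 1.93 ± 0.48, adjusted p = 0.018). After thinning, a GZMB UMI was in 43.1 to 87.8% of ileal and 55.7% and 53.8% of blood T cells, but also in 10.4 to 60.9% of ileal B cells and in 5.97% and 9.23% of blood B cells, which should lack it. The ileal range includes non-PP, with only 31 and 69 B cells, and whether some of these were T cells was not tested. PRF1, the pore-forming perforin, was at 107, 175 and 274 CPM in ileum and 139.6 and 158 CPM in PBMC (log2 0.31 ± 0.30, adjusted p = 0.471), and GNLY, which lyses microbes, at 1555, 2827 and 7794 CPM in ileum and 11689 and 6922 CPM in PBMC (log2 -1.20 ± 0.62, adjusted p = 0.179). Neither was called. GZMA has 2 entries, and whether the counting kept their reads apart was not tested, so its values are uncertain. The log2 fold change was 4.82 ± 0.80 for ENSSSCG00000016902 (adjusted p = 0.00283) and 0.79 ± 0.43 for ENSSSCG00000016903 (adjusted p = 0.201). Of 21 cytokine and chemokine entries, 11 were called higher and 0 lower, with a median of 1.94. IFNG was at 109, 125 and 166 CPM in ileum and 39.4 and 31.4 CPM in PBMC (log2 1.88 ± 0.20, adjusted p = 0.000243). IL22, which acts on epithelial cells, had 2696 UMIs in ileal and 1 in blood T cells, a ratio of 1803 with a counting interval of 323 to 71246, and was at 34.6, 68.8 and 129 CPM in ileum. It is also made by innate lymphoid cells, whose 11 markers, IL22 among them, summed to 513 to 1244 CPM in ileal and 879 and 669 CPM in blood T cells. These markers include PRF1, with the levels given above, and FCER1G, at a median of 717 CPM in ileal TRDC cells. The sum therefore cannot tell RNA of innate lymphoid cells from that of T cells. Whether such cells contributed to the IL22 level was not tested. IL26 changed by log2 6.86 ± 1.17 (adjusted p = 0.00316). CXCL8, the neutrophil attractant, had no UMI in blood T cells and was at least 111-fold higher in ileum. The same held for CCL20 (at least 42.6-fold), IL17F (at least 33.0-fold) and IL21 (at least 12.48-fold), each against a floor of 3 counts over both PBMC libraries. After removal of PBMC pig 1, GZMB (1.52) was no longer called, and GZMA ENSSSCG00000016902 (4.16) moved by more than 1.5-fold and stayed called. In the fit that lacked PBMC pig 2, GZMA ENSSSCG00000016902 (6.04) moved by more than 1.5-fold and stayed called.

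Of 22 cytokine receptor genes tested, 6 were called higher (IFNGR1, IL21R, IL23R, IL2RA, KIT and TGFBR2) and 2 lower (IL10RA and IL18RAP), with a median log2 fold change of 0.41. KIT, the stem cell factor receptor, was at 30.8, 38.2 and 59.5 CPM in ileum and 1.82 and 3.63 CPM in PBMC (log2 3.98 ± 0.38, adjusted p = 0.000137). KIT is also a gene of mast cells, and the 4 matched mast cell markers, KIT among them, summed to 35.3 to 69.9 CPM in ileal and 6.34 and 21.8 CPM in blood T cells. KIT itself was at 30.8 to 59.5 CPM in ileum, so this sum cannot tell mast cell RNA from KIT of other cells. The paper reports higher KIT in one group of ileal innate lymphoid cells. Whether mast cells or such innate lymphoid cells contributed to the KIT level here was not tested. IL21R was at 20.9, 44.8 and 52.4 CPM in ileum and 10.9 and 14.4 CPM in PBMC (log2 1.74 ± 0.32, adjusted p = 0.00466), IFNGR1 at 35.5, 82.5 and 128 CPM in ileum and 12.54 and 22.6 CPM in PBMC (log2 2.18 ± 0.46, adjusted p = 0.00847), and IL10RA, the receptor chain that binds IL10, at 31.8, 34.5 and 37.3 CPM in ileum and 80.8 and 77.8 CPM in PBMC (log2 -1.20 ± 0.09, adjusted p = 5.25e-05). IL10 and IL10RA thus moved in opposite directions. Of 20 inhibitory and costimulatory receptors, 8 were called higher (CD200R1, CD6, CD96, CTLA4, HAVCR2, LAG3, TNFRSF18 and TNFRSF9) and 0 lower, with a median of 1.16. HAVCR2, which encodes the inhibitory receptor TIM-3, was at 28.3, 30.2 and 35.04 CPM in ileum and 6.15 and 10.4 CPM in PBMC (log2 1.90 ± 0.20, adjusted p = 0.000212). CD200R1 changed by log2 3.22 ± 0.53 and TNFRSF9, the costimulatory receptor 4-1BB, by log2 2.56 ± 0.30. PDCD1, which encodes PD-1, was at 17.3, 98.5 and 169 CPM in ileum and 14.4 and 36.3 CPM in PBMC (log2 1.87 ± 0.85, adjusted p = 0.133) and was not called. Its values were lowest in non-PP, at 17.3 and 28.1 CPM. When PBMC pig 1 was left out, IL21R (1.55) and IFNGR1 (1.80) were no longer called, and TNFRSF9 (3.30) moved by more than 1.5-fold and stayed called.

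Transcription factors of T cell fate were called in both directions, 8 higher (BCL6, ID2, IRF4, KLF6, KLF7, MAF, TOX and TOX2) and 6 lower (BATF, EOMES, ID3, TBX21, ZBTB7B and ZEB2) of 28 tested. Their median log2 fold change was 0.37. The counts were 3 higher and 4 lower of 24 among CD8B cells, 3 and 8 of 25 among TRDC cells and 6 and 1 of 21 among CD4 cells. MAF, called higher over all T cells and among CD4 cells, was called lower among TRDC cells. EOMES, a T-box factor of memory and cytotoxic cells, was at 1.94, 3.65 and 4.49 CPM in ileum and 37.0 and 13.2 CPM in PBMC (log2 -2.89 ± 0.37, adjusted p = 0.000645), and ZEB2, a factor of terminal effectors, at 3.46, 4.57 and 7.14 CPM in ileum and 74.2 and 48.4 CPM in PBMC (log2 -3.62 ± 0.22, adjusted p = 2.29e-05). With TBX21, these factors of circulating effectors were all lower in ileum. BCL6, the factor of follicular helper cells, was at 26.3, 27.9 and 33.1 CPM in ileum and 3.11 and 6.85 CPM in PBMC (log2 2.51 ± 0.26, adjusted p = 0.000235), highest in PP pig 1. ID3, an inhibitor of E proteins, was at 36.4, 52.9 and 77.4 CPM in ileum and 92.6 and 209 CPM in PBMC (log2 -1.503 ± 0.31, adjusted p = 0.00724). Of 20 genes of the T cell receptor complex and its signalling, 5 were called higher (CD247, CD3D, CD3G, TRAT1 and TRDC) and 0 lower, with a median of 0.58. TRDC was at 975.1, 1144 and 1367 CPM in ileum and 352 and 364 CPM in PBMC (log2 1.72 ± 0.15, adjusted p = 9.63e-05). Of 12 receptors and adaptors shared with natural killer cells, 0 were called higher and 5 lower (HCST, KLRG1, NCR1, NCR3 and TYROBP), with a median of -0.95. NCR1 was called in none of the CD8B, TRDC and CD4 subsets. Whether natural killer cells of blood contributed to these calls was not tested. TYROBP and HCST, the signalling adaptors DAP12 and DAP10, were at 41.9, 67.7 and 106 CPM in ileum and 145 and 272 CPM in PBMC (log2 -1.58 ± 0.32, adjusted p = 0.00739) and 92.3, 131 and 202 CPM in ileum and 353 and 262 CPM in PBMC (log2 -1.13 ± 0.24, adjusted p = 0.00899). TYROBP is also a gene of myeloid cells and platelets, and it turned to log2 2.95 when an estimated ambient profile was subtracted. That fit took upper limits of 39.7% and 43.8% as the ambient share of PBMC pig 1 and pig 2. With shares of 11.9% and 10.1%, set by B cell genes, no named gene lost its call over T cells. KLRK1, the receptor NKG2D, had a log2 fold change of 0.23 ± 0.62 (adjusted p = 0.82) and was not called. Of 7 MHC class II genes, 1 was called higher, CD74, the invariant chain (log2 1.12 ± 0.17, adjusted p = 0.00172), and 0 lower. SLA-DRA was at 454, 605 and 842 CPM in ileum and 301 and 403 CPM in PBMC (log2 0.82 ± 0.22, adjusted p = 0.0232). On omission of PBMC pig 1, HCST (-0.91) and CD74 (0.91) were no longer called, and EOMES (-1.97) moved by more than 1.5-fold and stayed called. Once PBMC pig 2 was set aside, ID3 (-0.81) and TYROBP (-1.06) were no longer called, and BCL6 (3.17) moved by more than 1.5-fold and stayed called.

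Few or no genes of interferon response, proliferation and core metabolism were called. None of 26 interferon-stimulated genes (median log2 fold change -0.42), 16 glycolytic genes (-0.08), 58 cytosolic ribosomal protein genes (-0.10) or 64 nuclear genes of oxidative phosphorylation (-0.06) passed the thresholds in either direction. Over all 10187 genes tested, 2668 had an adjusted p below 0.05 before the fold threshold. At both thresholds 7.5% of all genes were called higher and 5.68% lower. At such shares 0 or 1 gene called in a short list, as for glycolysis or the cell cycle, is no result about its genes. ISG15 was at 560.1, 1356 and 1953 CPM in ileum and 417 and 1599 CPM in PBMC (log2 0.31 ± 0.56, adjusted p = 0.723) and IFI6 at 1481, 4460.3 and 6152 CPM in ileum and 1606 and 3499 CPM in PBMC (log2 0.62 ± 0.55, adjusted p = 0.441). GAPDH and LDHA had log2 fold changes of -0.55 ± 0.23 and -0.07 ± 0.15. Of 27 cell cycle genes, 0 were called higher and 1 lower, with a median of -0.75, and the 1 was MCM2, a subunit of the replicative helicase (log2 -1.15 ± 0.37, adjusted p = 0.0458). STMN1 was at 201, 429 and 553 CPM in ileum and 941 and 662 CPM in PBMC (log2 -0.96 ± 0.29, adjusted p = 0.0371). Of 15 genes of lipid and metal handling, 5 were called higher (FABP1, FABP6, MT1A, SCD and SQLE) and 0 lower, with a median of 0.93. FABP1 and FABP6 are genes of enterocytes, and FABP6 was no longer among the genes tested in either fit with an ambient profile subtracted. FABP6, the ileal bile acid binding protein of enterocytes, was at 108, 214 and 1922 CPM in ileum and 0.836 and 0.578 CPM in PBMC (log2 9.37 ± 1.96), and the highest value, 1922 CPM, was in non-PP pig 1, the library with the highest sum of epithelial markers, 2603 CPM, to which FABP6 contributes. SQLE, an enzyme of cholesterol synthesis, was at 58.4, 63.9 and 84.2 CPM in ileum and 40.3 and 21.1 CPM in PBMC (log2 1.12 ± 0.24, adjusted p = 0.00878). MCM2 lost its call when any one of non-PP pig 2 (-1.02), PBMC pig 1 (-0.48), PP pig 2 (-1.12), the library labelled whole ileum pig 1 (-1.12) and whole ileum pig 2 (-1.09) was left out. In the absence of non-PP pig 1, FABP6 (8.04) moved by more than 1.5-fold and stayed called. Without PBMC pig 1, FABP6 (9.64) was no longer called. On exclusion of PBMC pig 2, FABP6 (9.14) and SQLE (0.72) were no longer called.

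**Figure D4:**
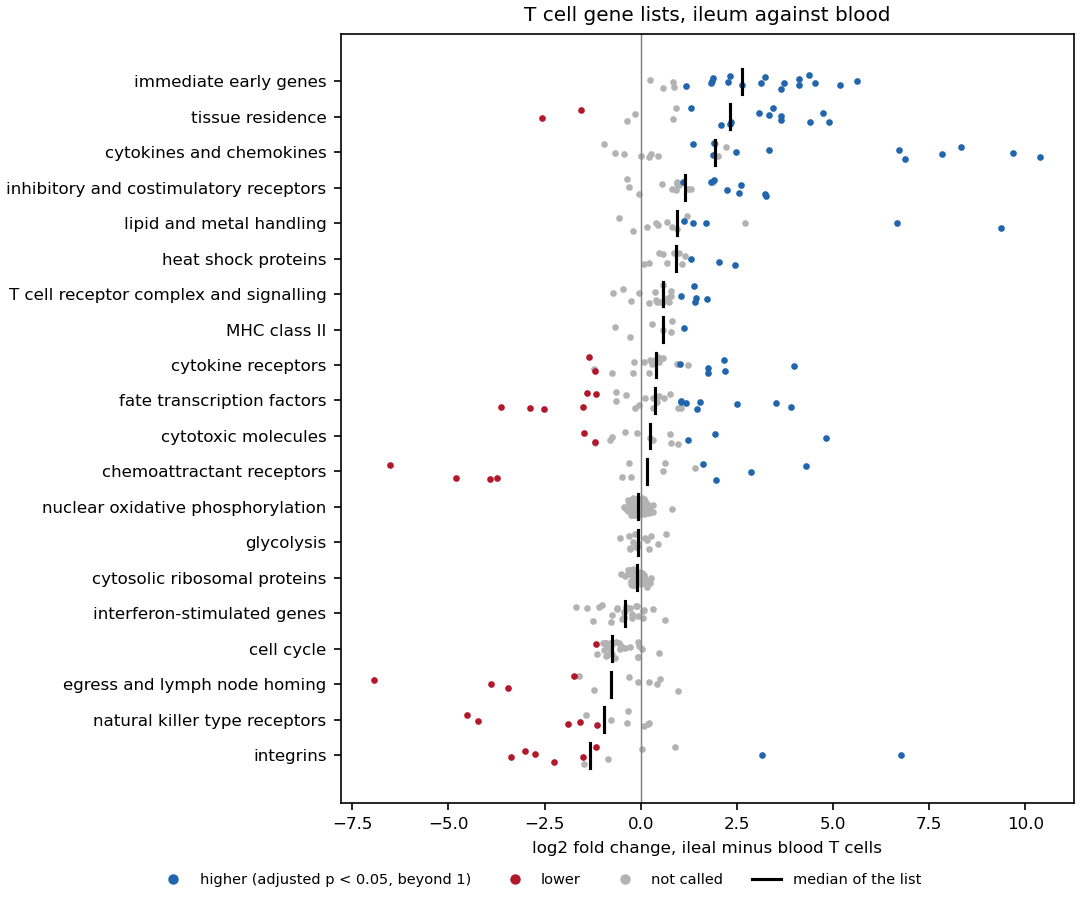
Log2 fold change of ileal over blood T cells (x axis) for the tested members of 20 gene lists (rows). Each point is a gene, blue where called higher, red where called lower and grey where not called, and the black bar is the list's median, which is 2.63 for immediate early genes and -0.77 for egress and lymph node homing. The medians of ribosomal protein and oxidative phosphorylation genes lie near 0, at -0.10 and -0.06.

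The comparison was repeated within the subsets, whose cells are part of the T cells above and come from the same 8 libraries, so that they are no independent support for each other. Among CD8B cells, 436 (5.45%) of 7999 genes were called higher and 357 (4.46%) lower in ileum. Among TRDC cells the counts were 510 (6.15%) and 445 (5.37%) of 8290, and among CD4 cells 335 (6.58%) and 170 (3.34%) of 5095. The CD4 counts rested on both PBMC libraries, with 189 called higher without pig 1, and 168 higher and 87 lower without pig 2. The log2 fold change of ITGAE was 3.60 ± 0.30 among CD8B cells, 3.85 ± 0.36 among TRDC cells and 0.92 ± 0.37 among CD4 cells. For CCR9 it was 2.16 ± 0.25 among CD8B cells, 3.08 ± 0.34 among TRDC cells and 1.96 ± 0.50 among CD4 cells. KLF2 had -4.77 ± 0.37 among CD8B cells, -4.55 ± 0.42 among TRDC cells and -3.09 ± 0.21 among CD4 cells, and RGS1 4.92 ± 0.28 among CD8B cells, 5.33 ± 0.22 among TRDC cells and 4.33 ± 0.27 among CD4 cells. All of these passed both thresholds except ITGAE among CD4 cells (adjusted p = 0.138).

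Of the tissue residence genes, 11 higher and 2 lower of 17 were called among CD8B cells, 11 higher and 1 lower of 17 among TRDC cells and 10 higher and 0 lower of 15 among CD4 cells. Of the egress genes the counts were 1 higher and 4 lower of 12, 0 higher and 5 lower of 12 and 1 higher and 3 lower of 9. Immediate early genes were called 14 higher and 0 lower of 18 among CD8B, 15 higher and 0 lower of 19 among TRDC and 16 higher and 0 lower of 17 among CD4 cells. Cytokine and chemokine genes were called 9 higher and 2 lower of 15, 9 higher and 1 lower of 15 and 5 higher and 0 lower of 14. Inhibitory and costimulatory receptors were called 7 higher and 0 lower of 18, 7 higher and 1 lower of 18 and 10 higher and 0 lower of 17, and PDCD1, not called over all T cells, was higher in ileum among CD4 cells (log2 2.52 ± 0.48, adjusted p = 0.00374). MHC class II genes were called 0 higher and 0 lower of 5 among CD8B and 3 higher and 0 lower of 5 among TRDC cells. Receptors shared with natural killer cells were called 0 higher and 5 lower of 11 and 1 higher and 3 lower of 11. These counts do not compare the subsets with each other, which needs the test of the difference.

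The ileum-blood contrast itself differed between TRDC and CD8B cells for some genes. Cells with TRDC and without CD8B were set against cells with CD8B and without TRDC in 1 fit of 16 sums with the library as a block, and the difference of their log2 fold changes was tested. Of 8464 genes, 113 (1.34%) had a contrast more positive among TRDC cells and 83 (0.981%) one more negative, at an adjusted p below 0.05. The total of 196 became 509 without PBMC pig 1 and 105 in DESeq2, and it fell to 27 with sums per pig and to 33, 19 and 14 with non-PP, PP and whole ileum alone. With sums per pig 18 of the 31 differences named here were no longer called, among them GZMB (2.25, adjusted p = 0.142), PRF1 (2.04, adjusted p = 0.18), GNLY (2.60, adjusted p = 0.18), GZMA ENSSSCG00000016903 (2.50, adjusted p = 0.335), FCER1G, KLRG1, KLRK1, CD74, SLA-DRA, HAVCR2, IL2RB and MAF. Of 15 cytotoxic entries tested, 8 were above (CST7, CTSW, GNLY, both GZMA entries, GZMB, NKG7 and PRF1) and 2 below (LYST and SRGN), with a median difference of 1.06 against -0.01 over all genes. For GZMB the lowest, median and highest values were 7603, 9359 and 11137 CPM in ileum against 2179 and 5156 CPM in PBMC among CD8B cells, and 3370.0, 5203 and 9639.6 CPM in ileum against 599 and 417 CPM in PBMC among TRDC cells, a difference of 1.98 ± 0.34 (adjusted p = 0.00246). Ileal TRDC cells thus stood above blood TRDC cells by more than CD8B cells did. For GNLY they were 1169, 1940.1 and 3938 CPM in ileum against 9558 and 12374 CPM in PBMC among CD8B cells, and 1578, 3701 and 8131 CPM in ileum against 6692 and 1915 CPM in PBMC among TRDC cells, a difference of 2.45 ± 0.41 (adjusted p = 0.00232). Here CD8B cells were lower in every ileal library than in either PBMC library, while TRDC cells overlapped. PRF1 differed by 1.997 ± 0.29 (adjusted p = 0.000831), and the GZMA entries ENSSSCG00000016902 and ENSSSCG00000016903 by 3.08 ± 0.36 and 2.23 ± 0.46, uncertain for the reason above. Receptors shared with natural killer cells gave 4 above (FCER1G, FGR, KLRG1 and KLRK1) and 0 below of 11, with differences of 2.19 ± 0.40, 3.06 ± 0.22, 1.96 ± 0.35 and 1.82 ± 0.30. FCER1G, also a gene of myeloid cells, turned to -6.92 when an estimated ambient profile was subtracted, and KLRK1 (1.04), SLA-DRA (0.44), GNLY (5.96) and GZMA ENSSSCG00000016903 (3.98) were no longer called there. That fit took an upper limit of the ambient share, and 7 named differences lost their calls in it. With the PBMC share set by B cell genes, 1 named difference lost its call. MHC class II genes gave 4 above (CD74, SLA-DMA, SLA-DQB1 and SLA-DRA) and 0 below of 6, with 0.89 ± 0.12 for CD74 and 1.16 ± 0.22 for SLA-DRA. Genes of the T cell receptor complex and its signalling gave 5 above (CD2, LCK, PTPN22, PTPN6 and TRAT1) and 2 below (LAT and ZAP70) of 18. CD2 was also called higher in ileum among TRDC cells. The paper describes γδ T cells without CD2 in both ileum and blood. Their share of TRDC cells in each tissue was not tested, so these differences need not lie within 1 type of γδ T cell. With PBMC pig 1 left out, GZMA ENSSSCG00000016902 (4.00), GZMA ENSSSCG00000016903 (3.72), GZMB (2.86), PRF1 (3.02) and GNLY (3.53) moved by more than 1.5-fold and stayed called. After removal of PBMC pig 2, SLA-DRA (0.73) was no longer called, and GZMA ENSSSCG00000016902 (2.06), GZMA ENSSSCG00000016903 (0.93), GZMB (1.10), PRF1 (1.12) and GNLY (1.36) moved by more than 1.5-fold and stayed called.

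**Figure D5:**
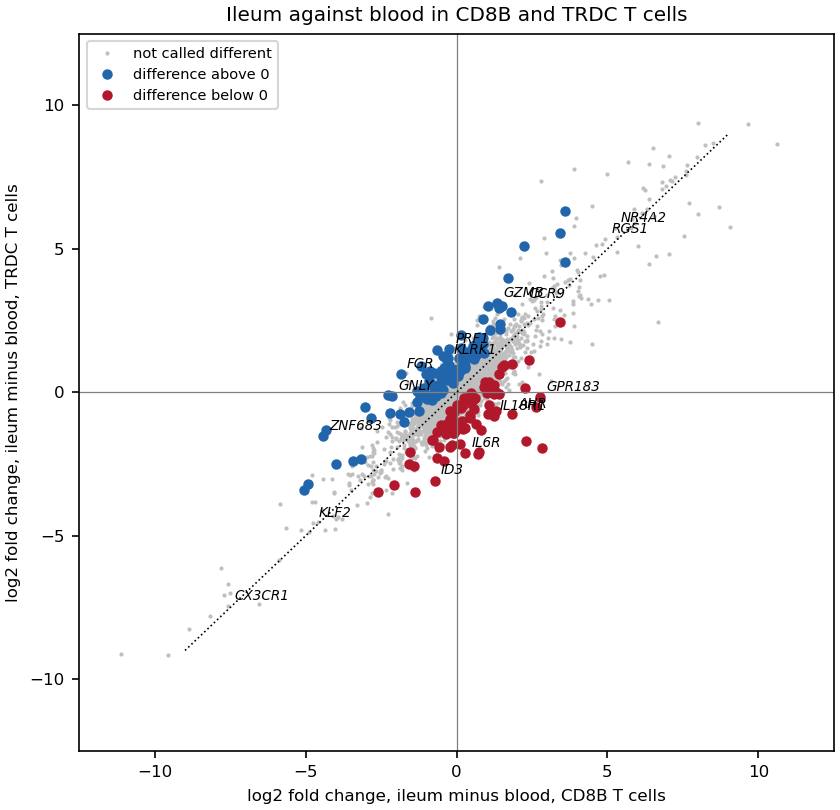
Log2 fold change of ileum over blood among CD8B cells (x axis) and among TRDC cells (y axis), 1 point for each gene tested in both, from the same 8 libraries. The dotted line marks equal values. Genes whose difference passed an adjusted p below 0.05 are blue where it was above 0, as for ZNF683, and red where it was below 0, as for GPR183.

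Residence genes were among those that differed, with 4 above (CD244, ENTPD1, HOPX and ZNF683) and 1 below (AHR) of 17. ZNF683 was at 0.987, 2.40 and 5.01 CPM in ileum against 97.8 and 38.0 CPM in PBMC among CD8B cells, and 27.9, 56.7 and 73.4 CPM in ileum against 187 and 84.0 CPM in PBMC among TRDC cells, a difference of 3.18 ± 0.28 (adjusted p = 7.05e-06). Its fall in ileum was thus steeper among CD8B cells, whose ileal values all lay under 6 CPM. AHR, the aryl hydrocarbon receptor that keeps intraepithelial cells in place, differed by -2.83 ± 0.31 (adjusted p = 4.39e-05), at 15.03, 18.0 and 27.8 CPM in ileum against 3.18 and 7.06 CPM in PBMC among CD8B cells, and 9.66, 12.6 and 22.4 CPM in ileum against 17.1 and 36.8 CPM in PBMC among TRDC cells. GPR183 was at 59.7, 82.3 and 111 CPM in ileum against 12.3 and 11.13 CPM in PBMC among CD8B cells, and 49.7, 76.5 and 129 CPM in ileum against 75.7 and 116 CPM in PBMC among TRDC cells, a difference of -3.18 ± 0.30 (adjusted p = 1.3e-05). Among CD8B cells its ileal libraries lay above blood, and among TRDC cells they overlapped blood. ID3 was at 14.6, 25.9 and 40.5 CPM in ileum against 27.7 and 55.6 CPM in PBMC among CD8B cells, and 48.0, 75.1 and 98.0 CPM in ileum against 360.1 and 973 CPM in PBMC among TRDC cells (difference -2.34 ± 0.20, adjusted p = 6.27e-06), highest in the TRDC cells of both PBMC libraries. Differences above 0 were also called for CD244 (1.87 ± 0.19), HAVCR2 (2.09 ± 0.36), DUSP4 (2.19 ± 0.34) and IL2RB, a chain of the IL2 and IL15 receptors (1.75 ± 0.24). Differences below 0 were called for IL6R (-2.62 ± 0.27), IL18R1 (-2.32 ± 0.24), MAF (-2.28 ± 0.38), CCR4 (-3.44 ± 0.57) and IL7R (-1.73 ± 0.33). In the fit that lacked PBMC pig 2, IL7R (-1.36), DUSP4 (1.65), HAVCR2 (1.75) and MAF (-1.59) were no longer called, and IL2RB (1.17) moved by more than 1.5-fold and stayed called. When PBMC pig 1 was left out, IL2RB (2.53) moved by more than 1.5-fold and stayed called.

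By size alone, the naming rule gave genes of low level, and their fitted differences rest on libraries at or near 0. Above 0 they were MGP, GP1BB and ECM1 beside ZNF683 and GZMA, and below 0 TNFSF11, FCER1A, HRH2 and MT1A beside CCR4. The values of MGP, an inhibitor of calcification, were 0, 0 and 0.624 CPM in ileum against 0 and 11.4 CPM in PBMC among CD8B cells, and 0, 0.154 and 29.0 CPM in ileum against 0 and 0 CPM in PBMC among TRDC cells. Those of TNFSF11, the cytokine RANKL, were 0, 0.546 and 2.96 CPM in ileum against 0 and 0 CPM in PBMC among CD8B cells, and 0.921, 4.29 and 9.88 CPM in ileum against 9.62 and 23.6 CPM in PBMC among TRDC cells. GP1BB is a platelet gene, and platelet and red cell genes summed to 11758 and 2479 CPM in blood T cells.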

How the data were processed

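Single-cell libraries were made with 10x 3′ v2 chemistry from ileum and PBMC of 2 pigs, and the 4 sequencing runs of a library were 1 replicate. The authors deposited raw UMI counts per gene and barcode, made with Cell Ranger (4.0.6 in the submitters' processing notes) against Sscrofa11.1 with a modified Ensembl annotation, from before their correction for ambient RNA, their cell filters and their removal of doublets. The 8 matrices held 25880 genes and 737280 barcodes each, all of them whole numbers. The authors' cell annotation was not used here, cells were barcodes with at least 1250 UMIs, at least 550 genes and at most 12.5% mitochondrial UMIs, and no doublet caller was run.

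Counts were summed over the T cells of each library and tested with edgeR's quasi-likelihood test (edgeR 4.0.16, R 4.3.3, TMM, filterByExpr, Benjamini-Hochberg adjustment over all genes tested), with tissue as the only term, 6 ileal against 2 PBMC libraries. The 5 genes of the rule and the 13 mitochondrial genes were left out of the test, and CD8B, TRDC or CD4 out of the fit of its own subset. Genes were called at an adjusted p below 0.05 and a log2 fold change beyond 1, and differences between TRDC and CD8B cells at an adjusted p below 0.05. CPM values were computed here from the deposited counts. Shares were compared after thinning each cell to 1250 UMIs, by exact permutation over libraries, and intervals are 95% Clopper-Pearson. Script steps were tested on simulated data. The other versions were limma 3.58.1, DESeq2 1.42.0, pandas 2.3.3, scipy 1.17.1, Python 3.11.15 and numpy 2.4.6. No p-value here covers variation between animals beyond these 2.

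Up to 15 genes a direction were named that had the largest change over all T cells, were called with the same sign among CD8B and TRDC cells, did not overlap between tissues, reached a mean of 50 CPM in the higher tissue and exceeded the level in barcodes of 1 to 99 UMIs of the same library. The rule also took up to 5 genes a direction for the difference, and 2 to 4 members of each gene list. Short counts of list members are named in full, chosen after their values were seen. One gene of the egress list is not reported here and was left out of the list's counts. The members and the lists were chosen with earlier results of these data known.

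Same-numbered libraries come from the same pig by their labels. Their deviations from the group means correlated at 0.51 (PP and non-PP), 0.32 (PP and PBMC) and 0.46 (non-PP and PBMC), but at -0.05 to 0.10 for whole ileum, whose library labelled pig 1 carried Y-linked reads. Of 26 alternatives, 21 were planned and 5 were added after the data had been seen: the pig block without that library, each pig alone, removal of shared barcodes, and an ambient share of PBMC set by B cell genes.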

Additional observations from a re-analysis of the deposited data

Results flagged for a closer look

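Among 93 groups of 6 ileal libraries checked for a library that stood apart, 5 held one by Dixon's criterion, and chance alone gives about 1 in 20. They were IL21R in non-PP pig 1 (20.9 CPM, below the others), BCL6 in PP pig 1 (33.1 CPM, above), CD247 in PP pig 1 (769 CPM), FABP6 in non-PP pig 1 (1922 CPM, above) and SQLE in PP pig 1 (84.2 CPM, above).

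The ileum-blood log2 fold change differed between TRDC and CD8B cells for 31 named genes by the test of the difference itself (edgeR, adjusted p below 0.05). TRDC cells had the more positive value for MGP (11.29), GP1BB (5.61), ECM1 (3.19), ZNF683 (3.18), GZMA ENSSSCG00000016902 (3.08), FGR (3.06), GNLY (2.45), GZMA ENSSSCG00000016903 (2.24), FCER1G (2.19), DUSP4 (2.19), HAVCR2 (2.09), PRF1 (1.997), GZMB (1.98), KLRG1 (1.96), CD244 (1.87), KLRK1 (1.82), IL2RB (1.75), SLA-DRA (1.16) and CD74 (0.89). They had the more negative value for TNFSF11 (-6.17), FCER1A (-5.79), HRH2 (-4.36), MT1A (-3.57), CCR4 (-3.44), GPR183 (-3.18), AHR (-2.83), IL6R (-2.63), ID3 (-2.34), IL18R1 (-2.32), MAF (-2.28) and IL7R (-1.73). MGP, GP1BB, ECM1, TNFSF11, FCER1A, HRH2 and MT1A were at or near 0 in several libraries, so that these fitted values are no bounds, and 7 of the 31 genes were called under every setting that tested them. Without PBMC pig 2, MGP (5.05), ECM1 (3.01), TNFSF11 (-5.18), HRH2 (-5.78) and MT1A (-3.90) lost their calls, and without PBMC pig 1 FCER1A (-4.45) did. Without non-PP pig 1 the calls of GP1BB (4.45), TNFSF11 (-6.17) and FCER1A (-5.49) were lost.

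In the library labelled whole ileum pig 1, 41.4% of T cells carried a UMI of the Y-linked genes DDX3Y, EIF1AY, KDM5D or ZFY, in an animal labelled female, while no T cell did so in the other libraries of pig 1. Over the genes, its chi-square distance a degree of freedom was 3.14 to whole ileum pig 2 and 4.65 to PP pig 2, against 16.3 between the PP, 43.2 between the non-PP and 63.8 between the PBMC libraries of the 2 pigs.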

How the results depend on the processing

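Counts of genes called higher and lower in ileal T cells (764 and 579) were 860 and 583 in DESeq2, 767 and 574 without TMM, 823 and 713 without a filter on low counts, 729 and 554 at 2 or more UMIs of CD3E, 695 and 578 with the stricter gate (no UMI of 10 further marker genes, no cell of the highest UMI counts), and 1095 and 598 with an ambient profile subtracted, or 701 and 569 with the PBMC share set by B cell genes. With the pig as a block the paired fits called 788 and 602 (T), 476 and 388 (CD8B), 562 and 486 (TRDC) and 339 and 173 (CD4), no named gene lost its call, and without the library labelled whole ileum pig 1 the blocked counts were 819 and 593 and S1PR1 was no longer called. Sums per pig gave 738 and 438 (T), 413 and 371 (CD8B), 391 and 309 (TRDC) and 409 and 220 (CD4), with 6 named genes and 18 named differences no longer called. Sums per pig and the fit of pig 1 alone keep that library under its label. The cause of the following changes was not tested, apart from the smaller number of libraries in fits of 1 pig or 1 dissection. Pig 1 alone gave 197 higher and 175 lower over T cells, 212 and 185 (CD8B), 279 and 211 (TRDC) and 111 and 57 (CD4), and 91 differences of 196. Pig 2 alone gave 426 higher over T cells, 185 and 96 for CD4, and 502 differences. PP alone gave 482 and 250 over T cells, 247 and 217 (CD8B), 202 and 124 (TRDC) and 19 differences. Non-PP alone gave 365 lower over T cells, 324 and 255 (TRDC), 86 lower (CD4) and 33 differences, and whole ileum alone 299 and 267 (TRDC) and 14 differences. CD8B counts were 769 higher with the ambient profile subtracted, 279 higher after thinning and 579 lower without the filter, and CD4 counts 220 higher after thinning and 345 lower without the filter. Differences numbered 105 in DESeq2, 393 without the filter and 27 with sums per pig. Leaving out 1 library gave 400 to 743 higher and 452 to 629 lower over T cells, 291 to 433 and 285 to 379 (CD8B), 395 to 509 and 386 to 463 (TRDC), 168 to 342 and 87 to 187 (CD4), 135 to 509 differences, and shares that differed by -2.05 to 0.984 (CD4), 0.396 to 5.69 (CD8B) and 10.5 to 12.8 (TRDC) percentage points. The CD4 share turned to 0.0447 without non-PP pig 1 and to 0.984 without PBMC pig 2. Of 75 named genes called over T cells, 46 were called under every setting that tested them, 103 of 1948 values lost the call and 1 was reversed, TYROBP at 2.95 with the ambient profile subtracted. Of 15 named genes not called, 5 changed sign under a setting. Of 695 values of the 31 named differences, 117 lost the call and 1 was reversed, FCER1G at -6.92 with the ambient profile subtracted. The ambient share was taken as an upper limit, 3.47 to 5.696% in ileum and 39.7% and 43.8% in PBMC, or 11.9% and 10.1% by B cell genes. Depth limits genes near 0. With 2 PBMC libraries and the smaller tail doubled, no share could reach p below 0.0714 in the permutation test used.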
